A study of Homo sapiens with 10 samples.

Results

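OVCAR-3 cells held in silica gel for 3 days were compared with OVCAR-3 cells in standard culture, across all genes. OVCAR-3 is an established line of human ovarian adenocarcinoma, and silica gel is a porous inorganic solid in which cells are immobilized. The comparison took 4 of the 10 RNA-sequencing libraries of the study, 2 of Day 3 (3 days in the gel) and 2 of Control, with each pair labelled as biological replicates. The genes were those with at least 1 TPM in at least 2 of the 10 libraries, which left 15167 of 58222 genes. TPM is a transcript abundance corrected for length, with the same total in every library. Day 3 cells had been immobilized for 3 days when RNA was taken, Control cells had never been in a gel, and all of them grew in the same serum-supplemented RPMI medium. Day 1 libraries, from cells immobilized for 24 hours, are given beside some results. The other groups of the study, Extracted (3 days in the gel, then 2 weeks of recovery) and Treated (24 hours of 0.5 uM cisplatin, then 2 weeks of recovery), entered the fit and the estimate of spread. The replicate pairs come from 1 cell line, so the spread is that between cultures of the line.

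As background, epithelial cells in culture spread on a matrix that they partly make themselves. Integrins carry the tension of the actin cytoskeleton to that matrix, and the coactivators YAP and MRTF bring this mechanical state to the nucleus, through the DNA-binding factors TEAD and SRF. Ovarian carcinoma cells also secrete defence proteins such as lipocalin-2 and elafin, answer interferons, and express bone morphogenetic protein (BMP) targets of the ID family. Each of these systems was described from gene lists by role.

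The libraries differed in composition before any gene was tested. Mitochondrial mRNAs, 13 in number, took 5.97% and 7.61% of TPM in the Day 3 libraries against 16.7% and 15.8% in the Control libraries. Nuclear protein-coding genes held 91.2% and 89.7% in Day 3 libraries against 81.1% and 82.0% in Control libraries. Genes for small RNAs, a class that here also took in ribosomal RNA genes, held 1.18% and 0.97% in Day 3 libraries against 0.329% and 0.361% in Control libraries. The Day 3 excess lay in 1 entry, RNU6ATAC, and without it the share was 0.183% and 0.21% in Day 3 libraries against 0.329% and 0.361% in Control libraries. Both mitochondrial ribosomal RNAs, counted in this class, were lower on Day 3 (median log2 fold change -0.86), and their part in that difference was not tested. TPM add up to a fixed total, so a fall in one class raises the share of the others. The median log2 fold change of all tested genes was 0.06 as deposited and 0.01 after median-of-ratios scaling. Rescaling to an equal sum was also done on nuclear protein-coding genes alone, 12944 of those tested, and gave a median of -0.06 for them. Protein-coding genes, the mitochondrial ones included, had a median of 0.07 as deposited. The nuclear rescaling therefore moved the median by more than 0.1. Rescaled counts are given for some lists, and counts printed without them can depend on scaling too. For example, MHC class I genes and partners gave 7 higher as deposited and 5 under nuclear rescaling. Actin-binding and contractile genes gave 13 lower as deposited and 17 under nuclear rescaling. Between 13896 and 14173 genes per library reached 1 TPM, and read depth is unknown because the file holds no counts.

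All 10 markers of ovarian carcinoma epithelium, among them EPCAM, KRT7, PAX8 and MUC16, were at 1 TPM or more in all 10 libraries. Their summed level was 6149 and 6567 TPM in Day 3 libraries against 5548 and 5696 TPM in Control libraries. Most of that difference lay in WFDC2, at 1132 and 1207 TPM on Day 3 against 523 and 542 TPM in Control. KRT7 went the other way, at 939 and 1070 TPM on Day 3 against 1296 and 1207 TPM in Control. Of the markers of other cell types, 4 of 7 for leukocytes, 4 of 5 for endothelium and 6 of 8 for fibroblasts were under 1 TPM in all libraries. Summed leukocyte markers reached 3.18 and 4.51 TPM in Day 3 libraries against 6.91 and 4.36 TPM in Control libraries. The endothelial sum was 1.36 and 1.25 TPM in Day 3 libraries against 1.32 and 1.49 TPM in Control libraries, and the fibroblast sum 10.5 and 11.3 TPM in Day 3 libraries against 14.6 and 12.8 TPM in Control libraries. In RNA from a whole culture, fewer cells that express a gene and less RNA per cell cannot be told apart.

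After 3 days in the gel 1489 of the 15167 genes (9.82%) differed from Control at a Benjamini-Hochberg adjusted p under 0.05 in limma's moderated test on log2(TPM + 1), the meaning of "called" in what follows. Of these, 786 (5.18%) were higher and 703 (4.64%) were lower on Day 3, and in no called gene did the Day 3 and Control libraries overlap. These shares are the background for every count of called list members below. The lists were chosen with earlier results of these data known, so such counts describe the lists and do not test them. Across all tested genes both Day 3 libraries lay above both Control libraries for 38.9% and below them for 24.9%. The changes were mostly moderate, with a median absolute log2 fold change of 0.67 among the calls and a median SE of 0.16 over all tested genes. At least a 2-fold change was reached by 82 of the higher genes (0.541% of those tested) and 198 of the lower genes (1.31%), so large changes were more often falls. A stricter set of 157 genes (1.04%), 48 higher and 109 lower, was also called in each of 4 fits that left out 1 Day 3 or 1 Control library. Those fits, with 1 library left in a group, called 216 to 302 genes each, against 1489 with all libraries, and leaving out an Extracted or a Treated library gave 920 and 931 or 2254 and 2251. The balance of directions depended on scaling, with 798 higher and 1186 lower under median-of-ratios scaling. Nuclear rescaling, which tested 12944 genes, gave 457 higher and 1453 lower. Fold changes are Day 3 minus Control on the log2(TPM + 1) scale, which understates the ratio of low TPM.

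**Figure D1:**
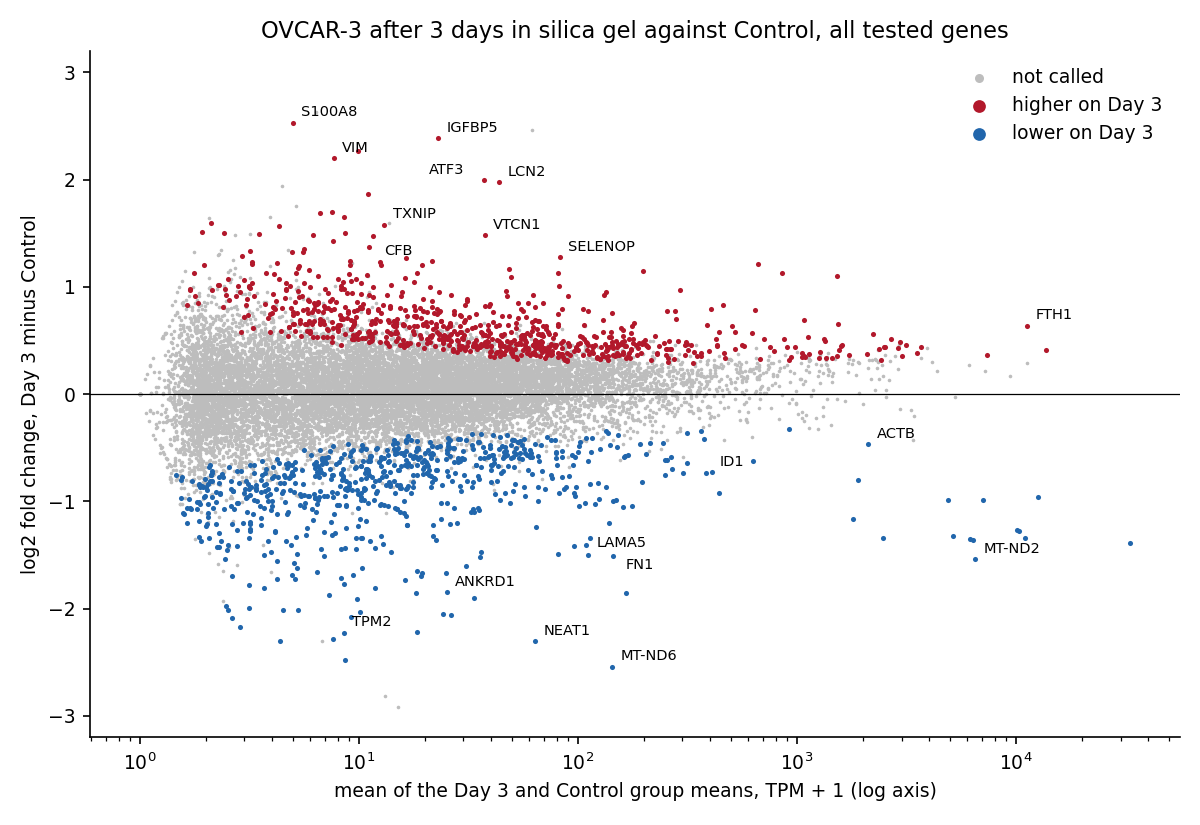
Log2 fold change of every tested gene (vertical axis, Day 3 minus Control) against its mean level (horizontal axis, TPM + 1, log scale), with the 786 genes called higher in red and the 703 called lower in blue. Named genes carry labels, mitochondrial mRNAs form the blue group at the high levels on the right, and 6 tested genes with fold changes beyond the plotted range are not shown.

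The genes that follow are the largest stable rises, meaning calls that held in the 4 leave-out fits and had a mean of at least 5 TPM in either group, small RNAs and pseudogenes left out. S100A8, a calprotectin subunit (chr1:153390032-153391188, GRCh38), was at 8.02 and 6.91 TPM on Day 3 against 0.791 and 0.196 TPM in Control (log2 fold change 2.53, SE 0.21, adjusted p = 0.000296). Its partner S100A9, which lies nearby on the same chromosome, was at 13.3 and 17.4 TPM on Day 3 against 2.56 and 2.20 TPM in Control (log2 fold change 2.26, SE 0.19, adjusted p = 0.000263). Both Day 3 libraries stood above both Control libraries for each subunit, as for every gene called higher, at levels under 20 TPM. IGFBP5, a secreted binding protein of insulin-like growth factors, reached 39.6 and 35.4 TPM on Day 3 against 5.83 and 6.89 TPM in Control (log2 fold change 2.39, SE 0.13, adjusted p = 5.37e-05). The intermediate filament gene VIM, known from mesenchymal cells, was at 11.7 and 11.5 TPM on Day 3 against 1.66 and 1.84 TPM in Control (log2 fold change 2.20, SE 0.17, adjusted p = 0.000263). The summed fibroblast markers given above were lower in both Day 3 libraries than in both Control libraries, but most of that sum was COL1A1. This gene was at 8.84 and 9.14 TPM on Day 3 against 12.9 and 10.6 TPM in Control. COL1A2 overlapped between the groups, at 1.03 and 1.52 TPM on Day 3 against 0.593 and 1.14 TPM in Control. The source of the VIM transcripts was not tested.

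Among the next in size was LCN2. This secreted protein, which sequesters iron-loaded siderophores, stood at 61.1 and 76.4 TPM on Day 3 against 17.2 and 15.997 TPM in Control (log2 fold change 1.98, SE 0.18, adjusted p = 0.000427). CFB, the complement factor B gene, was at 16.1 and 16.1 TPM on Day 3 against 4.55 and 5.84 TPM in Control (log2 fold change 1.47, SE 0.15, adjusted p = 0.000745). VTCN1, an inhibitory ligand of T cells, was at 55.3 and 52.98 TPM on Day 3 against 19.1 and 18.4 TPM in Control (log2 fold change 1.48, SE 0.13, adjusted p = 0.000296). The Day 3 libraries differed less from each other than from Control for all 3 genes. HLA-DRA, the alpha chain of an MHC class II molecule, had 11.9 and 11.7 TPM on Day 3 against 3.08 and 4.02 TPM in Control (log2 fold change 1.50, SE 0.17, adjusted p = 0.00138). The summed leukocyte markers overlapped between the groups, but members differed in direction. CD68 was at 1.43 and 2.34 TPM on Day 3 against 5.21 and 2.59 TPM in Control. CD14 was at 0.849 and 0.931 TPM on Day 3 against 0.646 and 0.365 TPM in Control. These levels are low, and the source of the HLA-DRA transcripts was not tested. The antiviral membrane protein gene IFITM1 was at 11.6 and 12.3 TPM in Day 3 libraries against 2.55 and 3.78 TPM in Control libraries, with close paralogs that may share its reads. TXNIP, an inhibitor of thioredoxin that also limits glucose uptake, was at 18.1 and 18.998 TPM on Day 3 against 4.64 and 6.57 TPM in Control (log2 fold change 1.58, SE 0.20, adjusted p = 0.00236). The other genes among the 15 largest stable rises were the stress factor ATF3, the interferon-induced IFI6, YPEL2, FRMD4B and the SNARE protein gene VAMP5, with log2 fold changes of 2.00, 1.49, 1.68, 1.37 and 1.32.

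Falls outnumbered rises among the stable calls. MT-ND6, a complex I subunit gene on the mitochondrial strand opposite the other mRNA genes, was at 39.2 and 42.5 TPM on Day 3 against 223 and 264 TPM in Control (log2 fold change -2.54, SE 0.19, adjusted p = 0.000218). Strand use in the counting is not given in the sources used here, so its level is uncertain. NEAT1 (chr11:65422774-65445540), the long RNA on which nuclear paraspeckles are built, stood at 22.5 and 18.5 TPM on Day 3 against 102 and 108 TPM in Control (log2 fold change -2.30, SE 0.16, adjusted p = 0.000188). TPM2, a tropomyosin that wraps actin filaments, was at 1.88 and 2.11 TPM on Day 3 against 11.995 and 14.03 TPM in Control (log2 fold change -2.22, SE 0.18, adjusted p = 0.000263). BMPER, a secreted BMP modulator, had 2.30 and 0.997 TPM on Day 3 against 10.1 and 13.1 TPM in Control (log2 fold change -2.28, SE 0.25, adjusted p = 0.00118). All 4 genes were several-fold lower in each Day 3 library than in either Control library.

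Several further stable falls were in genes of mixed roles. LENG8 was at 68.7 and 72.2 TPM on Day 3 against 223 and 295 TPM in Control (log2 fold change -1.85, SE 0.14, adjusted p = 0.000263). PABPC1L, a relative of the cytoplasmic poly(A)-binding protein, stood at 9.94 and 8.47 TPM on Day 3 against 38.2 and 45.2 TPM in Control (log2 fold change -2.06, SE 0.15, adjusted p = 0.000218). GOLGA8A and GOLGA8B, near-identical copies whose reads may be divided between them, fell with log2 fold changes of -2.03 and -1.85. LINC00893, a long non-coding RNA, had 0.978 and 2.46 TPM on Day 3 against 13.4 and 13.8 TPM in Control (log2 fold change -2.48, SE 0.29, adjusted p = 0.00162). FLG, the epidermal filaggrin gene, was at 14.6 and 11.7 TPM on Day 3 against 46.5 and 57.2 TPM in Control (log2 fold change -1.90, SE 0.17, adjusted p = 0.000446). LTB4R, a receptor for leukotriene B4, MAPK15, an atypical MAP kinase, and YJEFN3 fell with log2 fold changes of -2.01, -1.91 and -2.01.

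**Figure D2:**
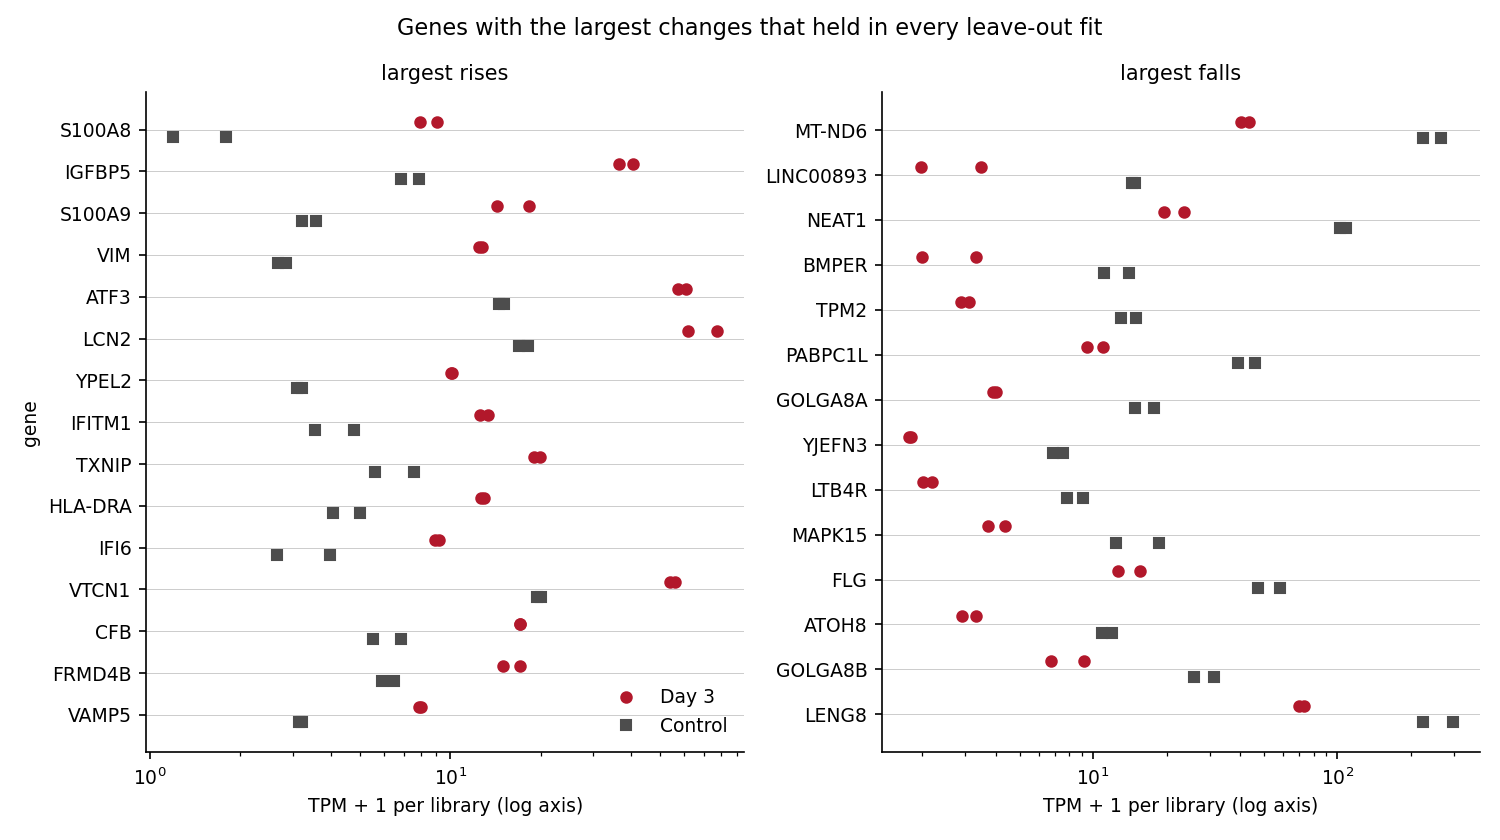
Level per library (TPM + 1, log axis) of genes among those with the largest stable rises (left) and falls (right), with Day 3 libraries as red circles above Control libraries as grey squares. The choice of genes required the 2 Day 3 libraries to lie on one side of the 2 Control libraries. S100A8 is at 8.02 and 6.91 TPM on Day 3 against 0.791 and 0.196 TPM in Control. LENG8 is at 68.7 and 72.2 TPM on Day 3 against 223 and 295 TPM in Control.

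By change in TPM rather than by ratio, other genes led among the called nuclear protein-coding genes. FTH1, the heavy chain of the iron store ferritin, gained most, at 13532 and 13908 TPM on Day 3 against 8559 and 9085 TPM in Control (log2 fold change 0.64, SE 0.10, adjusted p = 0.00499). CLU, a secreted chaperone, was at 2136 and 2016 TPM on Day 3 against 862 and 1092 TPM in Control (log2 fold change 1.10, SE 0.14, adjusted p = 0.00294). The other 8 of the 10 largest gains in that class were ribosomal protein genes, led by RPS16 at 15492 and 15777 TPM on Day 3 against 11586 and 11880.2 TPM in Control (log2 fold change 0.41, SE 0.08, adjusted p = 0.0164). In the same class of genes ACTB, cytoplasmic beta-actin, lost most, at 1728 and 1821 TPM on Day 3 against 2511 and 2399 TPM in Control (log2 fold change -0.47, SE 0.10, adjusted p = 0.0201). CA2, a carbonic anhydrase, was at 511 and 478 TPM on Day 3 against 720.0 and 801 TPM in Control (log2 fold change -0.62, SE 0.15, adjusted p = 0.0301). TUBA1C, an alpha-tubulin, was at 821 and 817 TPM on Day 3 against 1023 and 1030.2 TPM in Control (log2 fold change -0.33, SE 0.08, adjusted p = 0.0349). TUBA4A, another, was at 250.2 and 237 TPM on Day 3 against 398 and 363 TPM in Control (log2 fold change -0.64, SE 0.09, adjusted p = 0.00321). UPK1B, a tetraspanin of urothelial plaques, was at 306 and 268 TPM on Day 3 against 497 and 457 TPM in Control (log2 fold change -0.73, SE 0.14, adjusted p = 0.0119).

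Most targets of YAP and TEAD fell. Of 12 such genes tested 7 were lower and 0 higher (median log2 fold change -0.66), where 4.64% of all genes were called lower. ANKRD1, a muscle ankyrin repeat protein gene, was at 10.5 and 9.25 TPM on Day 3 against 42.5 and 34.2 TPM in Control (log2 fold change -1.85, SE 0.18, adjusted p = 0.000655). CYR61 (also CCN1), a matricellular protein gene, was at 50.001 and 52.3 TPM on Day 3 against 147 and 129.6 TPM in Control (log2 fold change -1.41, SE 0.14, adjusted p = 0.000658). Its relative CTGF (also CCN2) was at 60.3 and 63.8 TPM on Day 3 against 95.1 and 93.1 TPM in Control (log2 fold change -0.59, SE 0.11, adjusted p = 0.011), a smaller fall. F3, the tissue factor gene, was at 4.09 and 4.48 TPM on Day 3 against 8.88 and 10.9 TPM in Control (log2 fold change -1.04, SE 0.26, adjusted p = 0.0349). CRIM1, a membrane protein that binds BMPs, was at 30.5 and 31.6 TPM on Day 3 against 60.05 and 59.2 TPM in Control (log2 fold change -0.92, SE 0.10, adjusted p = 0.00117). Of the 7, 3 were called in all 4 leave-out fits, and each rescaling gave 8 lower. AMOTL2, an angiomotin family member that retains YAP in the cytoplasm and is itself a target, had 227 and 222 TPM on Day 3 against 377 and 371 TPM in Control. Of 16 regulators of the pathway 1 was lower, NF2 (merlin), at 44.5 and 45.1 TPM on Day 3 against 77.9 and 73.9 TPM in Control (log2 fold change -0.75, SE 0.15, adjusted p = 0.0172), and under nuclear rescaling 4 were lower.

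The promoter of CTGF is shown because TEAD sites in it are a textbook route from YAP to this gene. It covers 250 bases before and 50 bases after the annotated start, from the RefSeq table of GRCh38.p14, at chr6:131951323-131951622 on the minus strand, 5′ to 3′. Capitals mark the TEAD motif GGAATG, searched on both strands.
CTGF: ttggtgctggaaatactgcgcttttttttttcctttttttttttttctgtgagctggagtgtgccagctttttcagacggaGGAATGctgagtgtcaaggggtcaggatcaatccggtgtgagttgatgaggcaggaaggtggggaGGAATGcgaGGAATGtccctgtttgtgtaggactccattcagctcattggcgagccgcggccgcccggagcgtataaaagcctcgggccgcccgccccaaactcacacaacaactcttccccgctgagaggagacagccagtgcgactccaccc
The motif occurs 3 times, at 169, 104 and 95 bases before the start. It was present in 4 of the 9 YAP target promoters in the table, in 52 of the 472 promoters of genes called lower, in 53 of the 611 of genes called higher (8.67%), in 10.8% of those of all tested genes and in 12.4% of all 18423 promoters. A match describes letters and not binding.

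Actin and contractile genes fell in part. Of 28 tested 13 were lower and 0 higher (median -0.39). Beside TPM2, TAGLN (transgelin, an actin-bundling protein) was at 3.23 and 2.51 TPM on Day 3 against 10.5 and 12.99 TPM in Control (log2 fold change -1.72, SE 0.25, adjusted p = 0.00472). CALD1 (caldesmon, which restrains myosin on actin) was at 87.5 and 79.5 TPM on Day 3 against 201 and 185 TPM in Control (log2 fold change -1.20, SE 0.15, adjusted p = 0.00243). MYH9, the heavy chain of non-muscle myosin II, was at 95.5 and 91.9 TPM on Day 3 against 168 and 175 TPM in Control (log2 fold change -0.86, SE 0.13, adjusted p = 0.00546). FLNA, a crosslinker of actin filaments, was at 186 and 184 TPM on Day 3 against 304 and 324 TPM in Control (log2 fold change -0.76, SE 0.13, adjusted p = 0.00903). The Day 3 libraries lay below the Control libraries for 20 of the 28 and above for 4, against 24.9% and 38.9% of all tested genes. The small actin-handling proteins CFL1 and PFN1 were not called, and neither were the tropomyosins TPM3 and TPM4. Of 10 genes for SRF, its MRTF cofactors and their upstream regulators limma called none, with 1 at an unadjusted p under 0.05. RHOA stood at 375 and 373 TPM on Day 3 against 326 and 321 TPM in Control, and RHOC at 233 and 241 TPM on Day 3 against 199 and 189.9 TPM in Control. The CArG box, the element that SRF reads, was found in 4 of 24 promoters of the actin genes, against 1.02% of those of all tested genes.

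Most genes for extracellular matrix proteins fell. Of 13 matrix genes listed 11 passed the level filter, 7 were lower and 0 higher (median -0.76), and 4 of the 7 held in all 4 leave-out fits. FN1, fibronectin, the main ligand of integrin alpha5, was at 74.02 and 74.3 TPM on Day 3 against 207 and 219 TPM in Control (log2 fold change -1.51, SE 0.12, adjusted p = 0.000263). THBS1, thrombospondin-1, had 17.05 and 11.95 TPM on Day 3 against 45.1 and 45.6 TPM in Control (log2 fold change -1.60, SE 0.22, adjusted p = 0.00348). HSPG2, the basement-membrane proteoglycan perlecan, had 8.08 and 7.10 TPM on Day 3 against 16.2 and 16.8 TPM in Control (log2 fold change -1.03, SE 0.12, adjusted p = 0.00138). VCAN, the proteoglycan versican, was at 1.18 and 2.07 TPM on Day 3 against 5.42 and 3.42 TPM in Control (log2 fold change -1.04, SE 0.22, adjusted p = 0.0201). For each of these 4 genes both Day 3 libraries lay below both Control libraries, as for every gene called lower. Laminin and hemidesmosome genes gave 4 lower and 0 higher of 10, with LAMA5 at 55.8 and 60.7 TPM on Day 3 against 139 and 175 TPM in Control (log2 fold change -1.41, SE 0.13, adjusted p = 0.000427). LAMA3, the alpha chain of the epidermal laminin, was at 78.4 and 77.3 TPM on Day 3 against 171 and 149 TPM in Control (log2 fold change -1.02, SE 0.17, adjusted p = 0.00856). LAMC1, a laminin gamma chain, was at 80.1 and 72.6 TPM in Day 3 libraries against 116 and 115 TPM in Control libraries, and PLEC, the hemidesmosome linker plectin, at 15.5 and 17.1 TPM in Day 3 libraries against 24.03 and 30.6 TPM in Control libraries. LAMB3, a laminin beta chain, was not called.

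Of 10 integrin genes, the receptors of the matrix, the Day 3 libraries lay below the Control libraries for 7 and above for 0 (median -0.25), where 24.9% of all tested genes lay below. Of the 10, 2 were called lower under nuclear rescaling and 1 as deposited, ITGB8, which activates latent TGF-beta, at 44.5 and 41.7 TPM on Day 3 against 64.9 and 66.9 TPM in Control (log2 fold change -0.60, SE 0.12, adjusted p = 0.0165). Among 10 genes of the adhesion plaque 1 was higher, the scaffold NEDD9, at 11.9 and 12.3 TPM on Day 3 against 7.64 and 8.37 TPM in Control (log2 fold change 0.54, SE 0.14, adjusted p = 0.0398). That plaque count became 4 lower and 0 higher under nuclear rescaling. Proteases and inhibitors divided. MMP7, matrilysin, was at 1.26 and 1.59 TPM on Day 3 against 0.0717 and 0.151 TPM in Control (log2 fold change 1.12, SE 0.25, adjusted p = 0.0237). SERPINE2, an inhibitor of thrombin and plasminogen activators, was at 16.6 and 16.6 TPM on Day 3 against 9.39 and 7.30 TPM in Control (log2 fold change 0.92, SE 0.25, adjusted p = 0.0477). Going the other way, PLAUR, the urokinase receptor, was at 6.14 and 8.61 TPM on Day 3 against 11.7 and 13.3 TPM in Control (log2 fold change -0.70, SE 0.17, adjusted p = 0.0349). TIMP3, a matrix-bound metalloproteinase inhibitor, was at 37.8 and 35.3 TPM on Day 3 against 56.1 and 50.98 TPM in Control (log2 fold change -0.54, SE 0.12, adjusted p = 0.0237). Of 13 tested 4 were higher and 2 lower, and 0 of the 6 held in any of the 4 leave-out fits.

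Of 15 genes for keratins, lamins and other filaments VIM was higher and 3 were lower, where 9.82% of all tested genes were called, led by KRT17, a keratin of basal and stressed epithelia, at 14.1 and 21.1 TPM on Day 3 against 55.3 and 48.2 TPM in Control (log2 fold change -1.52, SE 0.18, adjusted p = 0.00171). KRT6A had 2.76 and 1.55 TPM on Day 3 against 3.78 and 4.12 TPM in Control, and NES, nestin, 2.37 and 2.41 TPM on Day 3 against 4.62 and 4.80 TPM in Control. Under median-of-ratios and nuclear rescaling 5 and 6 of the 15 were lower. The simple-epithelial keratins KRT7, KRT8, KRT18 and KRT19 were not called. Among 25 junction genes 3 were higher and 2 lower, and 4 and 3 were higher against 5 and 6 lower under median-of-ratios and nuclear rescaling. The claudin CLDN4 was at 132 and 146 TPM on Day 3 against 75.7 and 86.04 TPM in Control (log2 fold change 0.77, SE 0.11, adjusted p = 0.00388). Its relative CLDN1 went the other way, at 77.8 and 82.2 TPM on Day 3 against 153 and 135 TPM in Control (log2 fold change -0.83, SE 0.18, adjusted p = 0.0225). TJP3, a junction scaffold, and DSC2, a desmosomal cadherin, were higher, with log2 fold changes of 0.65 and 0.55. E-cadherin (CDH1) was not called. Of 14 regulators of epithelial and mesenchymal state 11 passed the filter, and 2 epithelial factors of the ETS family were higher. EHF was at 77.2 and 72.8 TPM on Day 3 against 36.9 and 46.1 TPM in Control (log2 fold change 0.85, SE 0.13, adjusted p = 0.0049). ELF3 was at 124 and 125 TPM on Day 3 against 82.8 and 90.8 TPM in Control (log2 fold change 0.52, SE 0.09, adjusted p = 0.0104). The epithelial regulators ESRP1, ESRP2, GRHL1 and GRHL2 were not called.

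Targets of BMP signalling fell together with its secreted and intracellular inhibitors. Of 10 targets 6 were lower and 0 higher (median -0.67). ATOH8, a bHLH factor, was at 1.92 and 2.32 TPM on Day 3 against 10.98 and 9.86 TPM in Control (log2 fold change -1.87, SE 0.14, adjusted p = 0.000218). ID1, an inhibitor of bHLH factors, was at 308 and 304 TPM on Day 3 against 472 and 543 TPM in Control (log2 fold change -0.73, SE 0.12, adjusted p = 0.00854). ID3, a relative, was at 65.9 and 63.2 TPM on Day 3 against 125 and 144 TPM in Control (log2 fold change -1.04, SE 0.16, adjusted p = 0.00539). SMAD9, a receptor-regulated SMAD, was at 0.894 and 0.758 TPM on Day 3 against 2.37 and 2.39 TPM in Control (log2 fold change -0.89, SE 0.17, adjusted p = 0.0124), a low level in both groups. Of the 9 antagonists and modulators that passed the filter 5 were lower and 0 higher. The inhibitory SMAD6 was at 15.03 and 14.1 TPM on Day 3 against 29.9 and 41.04 TPM in Control (log2 fold change -1.21, SE 0.15, adjusted p = 0.00184). FST, a trap of activin and BMPs, was at 66.5 and 63.8 TPM on Day 3 against 122 and 131 TPM in Control (log2 fold change -0.95, SE 0.13, adjusted p = 0.00377). SMAD7, which blocks the receptors, was at 15.97 and 12.6 TPM on Day 3 against 22.1 and 22.9 TPM in Control (log2 fold change -0.63, SE 0.13, adjusted p = 0.0208). Ligands and receptors gave 1 higher of 15 tested and 0 lower as deposited. That gene, TGFB1, was at 12.3 and 9.76 TPM on Day 3 against 7.51 and 6.57 TPM in Control (log2 fold change 0.57, SE 0.14, adjusted p = 0.0349), and under the rescalings none of the 15 was higher.

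In the WNT list 4 of 24 tested genes were higher and 2 lower, and 0 were called in all 4 leave-out fits. The ligand gene WNT11 was at 111 and 108 TPM on Day 3 against 39.6 and 61.99 TPM in Control (log2 fold change 1.13, SE 0.26, adjusted p = 0.0257). DKK1, a secreted inhibitor, was at 3.40 and 2.77 TPM on Day 3 against 0.222 and 1.29 TPM in Control (log2 fold change 1.29, SE 0.35, adjusted p = 0.0483). FZD3, a receptor, was at 10.01 and 9.92 TPM on Day 3 against 5.32 and 5.18 TPM in Control (log2 fold change 0.81, SE 0.14, adjusted p = 0.0101). LEF1, the nuclear factor of the pathway, was at 3.30 and 2.32 TPM on Day 3 against 7.003 and 8.03 TPM in Control (log2 fold change -1.17, SE 0.23, adjusted p = 0.0148). NOTCH genes gave 2 lower of 13, the receptor NOTCH1 at 5.89 and 6.66 TPM on Day 3 against 8.76 and 10.98 TPM in Control (log2 fold change -0.57, SE 0.14, adjusted p = 0.0366). HES4, a repressor, was at 27.7 and 36.4 TPM on Day 3 against 44.7 and 53.2 TPM in Control (log2 fold change -0.60, SE 0.17, adjusted p = 0.0497). Among 6 binding proteins of insulin-like growth factors IGFBP5 and IGFBP2 were higher, the second at 187 and 189.7 TPM on Day 3 against 126 and 142 TPM in Control (log2 fold change 0.49, SE 0.12, adjusted p = 0.0308). Under nuclear rescaling IGFBP5 was called and IGFBP2 was not, and 2 of the 6 were lower. Ligands, receptors and adaptors of that axis gave 1 lower of 8, IRS2, the adaptor of the insulin receptor, at 11.8 and 12.03 TPM on Day 3 against 17.97 and 19.5 TPM in Control (log2 fold change -0.61, SE 0.11, adjusted p = 0.011).

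The list of secreted defence and acute-phase genes gave the highest share of rises among the lists. Because members were chosen with earlier results of these data known, this rank is a description and not a test. Of 24 listed 16 passed the filter, 10 were higher and 0 lower (median 0.77), where 5.18% of all tested genes were higher. Beside LCN2 and CFB, RARRES3, a growth-restraining phospholipase listed with them though not a secreted protein, was at 5.13 and 5.80 TPM on Day 3 against 1.19 and 1.18 TPM in Control (log2 fold change 1.56, SE 0.24, adjusted p = 0.00529). PI3, the elastase inhibitor elafin, was at 20.05 and 24.2 TPM on Day 3 against 8.88 and 8.29 TPM in Control (log2 fold change 1.27, SE 0.19, adjusted p = 0.00548). Of 14 S100 genes tested (17 listed), 7 were higher and 0 lower. Apart from the calprotectin genes the rises were smaller: S100A6 was at 1347 and 1321 TPM on Day 3 against 811 and 844 TPM in Control (log2 fold change 0.69, SE 0.12, adjusted p = 0.00844). S100A14 was at 56.7 and 62.1 TPM on Day 3 against 34.7 and 36.05 TPM in Control (log2 fold change 0.73, SE 0.13, adjusted p = 0.011). After median-of-ratios or nuclear rescaling 1 S100 gene was lower. Among 7 kallikrein proteases 4 were higher and 1 lower. KLK6 had 66.1 and 66.5 TPM on Day 3 against 30.5 and 30.8 TPM in Control (log2 fold change 1.09, SE 0.10, adjusted p = 0.000567). KLK7 had 9.66 and 10.2 TPM on Day 3 against 3.77 and 5.44 TPM in Control (log2 fold change 0.98, SE 0.24, adjusted p = 0.033). KLK8 was at 77.1 and 76.7 TPM on Day 3 against 44.004 and 56.9 TPM in Control (log2 fold change 0.61, SE 0.13, adjusted p = 0.0214). KLK10, of the same gene cluster, fell to 32.6 and 35.7 TPM on Day 3 against 65.4 and 63.9 TPM in Control (log2 fold change -0.90, SE 0.11, adjusted p = 0.00163).

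Most listed antigens of ovarian carcinoma were not called. Their log2 fold change was positive for 14 of the 16 tested. The Day 3 libraries lay above the Control libraries for 10 and below for 1, against 38.9% and 24.9% of all tested genes. The median of the 16 was 0.26 as deposited and 0.11 after nuclear rescaling. Of 16 tested, VTCN1 and the membrane serine protease PRSS8, at 96.6 and 99.3 TPM on Day 3 against 58.95 and 64.8 TPM in Control (log2 fold change 0.66, SE 0.10, adjusted p = 0.00523), were higher. MUC16, which carries CA-125, MSLN and FOLR1 were not called. The epithelial marker WFDC2, described above, was at 1132 and 1207 TPM on Day 3 against 523 and 542 TPM in Control. Of 10 lineage factors HOXB7 was higher, at 28.4 and 27.9 TPM on Day 3 against 15.7 and 18.8 TPM in Control (log2 fold change 0.68, SE 0.18, adjusted p = 0.0398), and PAX8, WT1 and SOX17 were not called. Peptide hormone, retinoid and transport genes gave 3 higher of 11 tested. SELENOP, the plasma selenium carrier, was at 120.2 and 112 TPM on Day 3 against 40.3 and 55.2 TPM in Control (log2 fold change 1.28, SE 0.25, adjusted p = 0.0159). CRABP2, which carries retinoic acid inside the cell, had 498 and 529 TPM on Day 3 against 271 and 321 TPM in Control (log2 fold change 0.80, SE 0.17, adjusted p = 0.02).

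Interferon-stimulated genes rose in part. Of 36 listed 34 passed the filter, 14 were higher and 0 lower (median 0.49), and rescaling gave 16 and 15 higher. IFI44L was at 10.3 and 10.7 TPM on Day 3 against 2.03 and 3.14 TPM in Control (log2 fold change 1.70, SE 0.32, adjusted p = 0.0127). IFI6, an interferon-induced protein of mitochondria, was at 7.92 and 8.20 TPM on Day 3 against 1.64 and 2.96 TPM in Control (log2 fold change 1.49, SE 0.22, adjusted p = 0.00492). IFIT1, which binds viral RNA ends, was at 3.54 and 4.73 TPM on Day 3 against 0.599 and 1.06 TPM in Control (log2 fold change 1.49, SE 0.26, adjusted p = 0.0099). These are low levels. In each gene both Day 3 libraries exceeded both Control libraries, but that held for every gene called higher. Calls also made in all 4 leave-out fits numbered 4 of the 14. OAS3, MX2 and IFI27, of the same list, were not called. Sensors and signalling genes gave 4 higher and 0 lower of 19 tested, and 3 higher and 3 lower under nuclear rescaling. IRF9, the DNA-binding part of the ISGF3 complex, was at 26.7 and 26.7 TPM on Day 3 against 11.2 and 17.9 TPM in Control (log2 fold change 0.86, SE 0.21, adjusted p = 0.033). TLR3, a sensor of double-stranded RNA, was at 4.21 and 3.87 TPM on Day 3 against 1.73 and 2.25 TPM in Control (log2 fold change 0.76, SE 0.19, adjusted p = 0.0349). JAK1, the kinase of the receptors, had 83.8 and 78.3 TPM on Day 3 against 55.1 and 55.9 TPM in Control (log2 fold change 0.54, SE 0.13, adjusted p = 0.0296). IFNGR1, a chain of the receptor of interferon gamma, was at 39.7 and 37.4 TPM on Day 3 against 29.05 and 27.2 TPM in Control (log2 fold change 0.44, SE 0.11, adjusted p = 0.0398). STAT2 and the viral RNA sensor DDX58 were not called.

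The promoters of IFIT1 and IFI6 are shown because the interferon-stimulated response element lies close to the start of such genes. Both are from the same table and cover the same window, 5′ to 3′, IFIT1 at chr10:89392373-89392672 on the plus strand and IFI6 at chr1:27672143-27672442 on the minus strand. Capitals mark the core GAAANNGAA on either strand, which in IFIT1 reads as its complement.
IFIT1: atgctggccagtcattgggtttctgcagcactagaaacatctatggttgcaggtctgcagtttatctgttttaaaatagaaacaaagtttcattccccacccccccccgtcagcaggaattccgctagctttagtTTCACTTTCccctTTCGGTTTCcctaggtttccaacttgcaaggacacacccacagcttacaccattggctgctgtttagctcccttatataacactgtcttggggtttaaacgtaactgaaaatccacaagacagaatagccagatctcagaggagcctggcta
IFI6: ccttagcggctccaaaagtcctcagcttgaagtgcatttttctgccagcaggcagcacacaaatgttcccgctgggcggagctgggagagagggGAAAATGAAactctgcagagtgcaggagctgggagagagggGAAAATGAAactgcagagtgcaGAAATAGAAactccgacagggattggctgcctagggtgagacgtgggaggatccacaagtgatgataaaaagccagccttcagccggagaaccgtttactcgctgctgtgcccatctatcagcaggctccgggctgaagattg
IFIT1 holds the core 2 times, at 115 and 102 bases before the start, and IFI6 holds it 3 times, at 156, 115 and 93 bases before it. It was present in 20 of 27 promoters of the interferon list in the table, in 9 of 40 promoters of the genes stably higher on Day 3, in 8.51% of those called higher, in 3.6% of those called lower and in 6.39% of those of all tested genes.

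Antigen presentation moved the same way. Of 14 MHC class I genes and partners 7 were higher and 0 lower. HLA-B was at 88.98 and 124 TPM on Day 3 against 52.4 and 69.8 TPM in Control (log2 fold change 0.79, SE 0.19, adjusted p = 0.0296), with reads that related HLA genes may share. B2M, the invariant light chain, was at 1877 and 1864 TPM on Day 3 against 1214 and 1169.6 TPM in Control (log2 fold change 0.65, SE 0.12, adjusted p = 0.0111). Immunoproteasome subunits rose as well, PSMB9 to 5.25 and 5.01 TPM on Day 3 against 2.39 and 1.84 TPM in Control (log2 fold change 0.98, SE 0.16, adjusted p = 0.00659). PSMB8 reached 28.1 and 32.6 TPM on Day 3 against 20.1 and 20.2 TPM in Control (log2 fold change 0.56, SE 0.12, adjusted p = 0.0194). None of these 7 held in all 4 leave-out fits. Of 31 subunits of the constitutive proteasome limma called 0, as it did under both rescalings, and 2 had an unadjusted p under 0.05. As deposited, the log2 fold change was positive for 26 of the 31. Both Day 3 libraries lay above both Control libraries for 22, against 38.9% of all tested genes. The median of the 31 depended on scaling, at 0.11 as deposited, 0.05 after median-of-ratios scaling and -0.04 after nuclear rescaling. PSMC4 was at 1547 and 1518 TPM on Day 3 against 1355 and 1364 TPM in Control. PSMD8 was at 1223 and 1176 TPM on Day 3 against 1167 and 1166 TPM in Control.

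Stress-response genes rose in part. Of 14 sensors and factors of the integrated stress response 4 were higher and 0 lower. ATF3, a repressor induced by ATF4, was at 56.7 and 59.9 TPM on Day 3 against 13.6 and 14.1 TPM in Control (log2 fold change 2.00, SE 0.20, adjusted p = 0.000705). NUPR1, a stress-induced chromatin protein, was at 3.96 and 4.30 TPM on Day 3 against 0.978 and 1.76 TPM in Control (log2 fold change 1.13, SE 0.23, adjusted p = 0.0172). DDIT3, the factor CHOP, was at 40.8 and 42.8 TPM on Day 3 against 23.7 and 25.5 TPM in Control (log2 fold change 0.74, SE 0.17, adjusted p = 0.0279). ATF4 itself was at 460.2 and 439 TPM on Day 3 against 347 and 334 TPM in Control (log2 fold change 0.40, SE 0.10, adjusted p = 0.0398). Targets of ATF4 gave 3 higher of 17 tested: DDIT4, an mTORC1 inhibitor, was at 37.2 and 41.5 TPM on Day 3 against 21.3 and 20.2 TPM in Control (log2 fold change 0.89, SE 0.16, adjusted p = 0.00949). SESN2, a leucine sensor, was at 8.96 and 9.10 TPM on Day 3 against 5.54 and 5.28 TPM in Control (log2 fold change 0.65, SE 0.15, adjusted p = 0.0279). PSAT1, of serine synthesis, was at 234 and 226 TPM on Day 3 against 170.4 and 160.5 TPM in Control (log2 fold change 0.48, SE 0.12, adjusted p = 0.0361). The classical target ASNS was not called. Among 15 amino-acid transporters 1 was lower, the leucine carrier SLC7A5, at 85.4 and 81.4 TPM on Day 3 against 169 and 161 TPM in Control (log2 fold change -0.98, SE 0.13, adjusted p = 0.00294). Its partner chain SLC3A2 was not called. Of 20 genes of the endoplasmic reticulum response 1 was higher, XBP1, at 203 and 212 TPM on Day 3 against 132 and 148 TPM in Control (log2 fold change 0.57, SE 0.11, adjusted p = 0.0127), 3 were lower under nuclear rescaling, and HSPA5 was not called. Of 16 cytosolic heat-shock genes limma called 0 as deposited (5 at an unadjusted p under 0.05), and 3 and 4 were lower under median-of-ratios and nuclear rescaling, with HSPA8 at 2828 and 2801 TPM on Day 3 against 3115 and 3083 TPM in Control and HSP90AA1 at 1661 and 1577 TPM on Day 3 against 1717 and 1675 TPM in Control.

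Hypoxia-response genes gave 4 higher of 19 tested and 0 lower. BNIP3L, a receptor for the removal of mitochondria by autophagy, was at 85.5 and 88.6 TPM on Day 3 against 56.3 and 61.2 TPM in Control (log2 fold change 0.56, SE 0.10, adjusted p = 0.0124). Its relative BNIP3 was at 42.1 and 36.3 TPM on Day 3 against 27.99 and 26.8 TPM in Control (log2 fold change 0.50, SE 0.13, adjusted p = 0.0418). BNIP3 was not called under either rescaling, nor with a replicate term in the model. P4HA1, a collagen prolyl hydroxylase, had 26.8 and 26.3 TPM on Day 3 against 16.9 and 18.6 TPM in Control (log2 fold change 0.56, SE 0.11, adjusted p = 0.0165). HIF1A, the oxygen-regulated factor, was at 387 and 340.3 TPM on Day 3 against 254 and 269 TPM in Control (log2 fold change 0.47, SE 0.11, adjusted p = 0.0266). Glucose transporter SLC2A1 and VEGFA, which hypoxia induces in many cells, were not called. Of 17 glycolytic enzymes limma called 0 (2 at an unadjusted p under 0.05), and 2 and 4 were lower under the rescalings, with GAPDH at 5201 and 5249 TPM on Day 3 against 5214 and 5420.5 TPM in Control and PKM at 3185 and 3123 TPM on Day 3 against 3443 and 3539.7 TPM in Control. Autophagy genes gave 3 higher of 15, with SQSTM1, the cargo receptor p62, at 330.1 and 371 TPM on Day 3 against 197 and 212 TPM in Control (log2 fold change 0.77, SE 0.12, adjusted p = 0.00602). WIPI1, of the early autophagosome, was at 21.1 and 22.1 TPM on Day 3 against 13.1 and 16.4 TPM in Control (log2 fold change 0.53, SE 0.13, adjusted p = 0.032). The lysosomal genes LAMP2, NEU1 and TPP1 were higher, 3 of 18, with log2 fold changes of 0.38, 0.36 and 0.32, and under nuclear rescaling 0 of the 18 were called.

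Iron and glutathione genes gave 4 higher of 27 tested and 0 lower, and 3 were lower under either rescaling. FTL, the light chain of ferritin, was at 631 and 615 TPM on Day 3 against 414 and 422 TPM in Control (log2 fold change 0.58, SE 0.08, adjusted p = 0.00321). SLC40A1, the iron exporter ferroportin, was at 5.78 and 6.01 TPM on Day 3 against 2.95 and 2.44 TPM in Control (log2 fold change 0.90, SE 0.17, adjusted p = 0.0129). GSTA4, a glutathione transferase, was at 7.48 and 8.19 TPM on Day 3 against 2.69 and 3.62 TPM in Control (log2 fold change 1.10, SE 0.15, adjusted p = 0.00346). The NRF2 targets NQO1, GCLM and TXNRD1 were not called. Of 14 metallothionein and metal-handling genes 2 were lower, MT1F, which has close paralogs, at 6.42 and 8.31 TPM on Day 3 against 16.4 and 15.3 TPM in Control (log2 fold change -1.02, SE 0.20, adjusted p = 0.0155). The other was the zinc exporter SLC30A1, at 9.18 and 8.86 TPM on Day 3 against 13.4 and 12.96 TPM in Control (log2 fold change -0.50, SE 0.12, adjusted p = 0.0284). Among cholesterol genes MSMO1, INSIG1 and HMGCS1 were higher, 3 of 20, with log2 fold changes of 0.53, 0.46 and 0.35, and median-of-ratios scaling gave 1 higher, MSMO1, while nuclear rescaling gave MSMO1 higher and 2 lower. Fatty-acid synthase, FASN, was at 61.01 and 62.4 TPM on Day 3 against 102 and 110.0 TPM in Control (log2 fold change -0.77, SE 0.09, adjusted p = 0.00186). The desaturase FADS2 was higher, at 196 and 186 TPM on Day 3 against 138 and 141 TPM in Control (log2 fold change 0.45, SE 0.08, adjusted p = 0.0105).

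Of 14 NF-kB subunits and feedback genes limma called 0 as deposited (3 at an unadjusted p under 0.05) and 1 lower under each rescaling, with NFKBIA at 243 and 263 TPM on Day 3 against 232 and 238 TPM in Control and TNFAIP2 at 167 and 179 TPM on Day 3 against 130.1 and 148 TPM in Control. Among 17 cytokine genes tested (23 listed) 3 were lower and 1 higher. IL6 was at 2.25 and 1.16 TPM on Day 3 against 7.53 and 4.74 TPM in Control (log2 fold change -1.40, SE 0.25, adjusted p = 0.00949). LIF, of the same family, was at 11.9 and 11.1 TPM on Day 3 against 31.03 and 29.3 TPM in Control (log2 fold change -1.32, SE 0.16, adjusted p = 0.00171). IL18 was at 20.7 and 19.5 TPM on Day 3 against 50.2 and 38.95 TPM in Control (log2 fold change -1.10, SE 0.20, adjusted p = 0.0122). CCL28, a mucosal chemokine, went the other way at 25.3 and 23.4 TPM on Day 3 against 11.1 and 10.1 TPM in Control (log2 fold change 1.13, SE 0.11, adjusted p = 0.000567). Of 18 immediate-early genes 3 were lower. EGR1, a zinc-finger factor, was at 8.07 and 9.19 TPM on Day 3 against 18.9 and 19.4 TPM in Control (log2 fold change -1.07, SE 0.14, adjusted p = 0.00279). IER3 stood at 31.5 and 35.5 TPM on Day 3 against 55.1 and 56.2 TPM in Control (log2 fold change -0.72, SE 0.15, adjusted p = 0.0192). FOS, a subunit of AP-1, had 5.13 and 5.97 TPM on Day 3 against 8.14 and 9.74 TPM in Control (log2 fold change -0.60, SE 0.15, adjusted p = 0.0349). EGFR, the receptor of epidermal growth factor, was at 14.5 and 14.1 TPM on Day 3 against 23.9 and 24.97 TPM in Control (log2 fold change -0.73, SE 0.17, adjusted p = 0.028), the 1 lower gene of 22 of its axis, and 7 and 9 of the 22 were lower under median-of-ratios and nuclear rescaling. The median of these 22 genes was -0.29, and the Day 3 libraries lay below the Control libraries for 14 of them, against 24.9% of all tested genes.

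Division genes were lower by small amounts. Of 30 mitotic genes 11 were lower and 0 higher (median -0.37), and the Day 3 libraries lay below the Control libraries for 29 of 30, against 24.9% of all tested genes. CENPE, a kinetochore motor, was at 9.65 and 8.56 TPM on Day 3 against 18.8 and 17.4 TPM in Control (log2 fold change -0.92, SE 0.20, adjusted p = 0.0232). MKI67, which coats mitotic chromosomes, was at 40.1 and 32.2 TPM on Day 3 against 62.1 and 67.9 TPM in Control (log2 fold change -0.84, SE 0.18, adjusted p = 0.0194). TOP2A, a topoisomerase, was at 55.7 and 53.7 TPM on Day 3 against 96.2 and 90.4 TPM in Control (log2 fold change -0.76, SE 0.18, adjusted p = 0.0303). ASPM, of the spindle poles, was at 13.2 and 10.5 TPM on Day 3 against 19.2 and 19.5 TPM in Control (log2 fold change -0.67, SE 0.16, adjusted p = 0.0282). No mitotic call survived in any of the 4 leave-out fits, whereas median-of-ratios and nuclear rescaling gave 23 and 26 lower. Of 32 replication genes 6 were lower and 0 higher, and 12 and 17 after these rescalings. POLE, the leading-strand polymerase, was at 8.90 and 9.49 TPM on Day 3 against 19.4 and 23.6 TPM in Control (log2 fold change -1.14, SE 0.18, adjusted p = 0.00582). POLD1, its lagging-strand counterpart, was at 13.6 and 13.05 TPM on Day 3 against 22.1 and 21.2 TPM in Control (log2 fold change -0.66, SE 0.12, adjusted p = 0.0105). UHRF1, of maintenance methylation, was at 8.54 and 8.87 TPM on Day 3 against 13.97 and 14.995 TPM in Control (log2 fold change -0.67, SE 0.12, adjusted p = 0.0121). CCNE1, the G1/S cyclin, was at 129 and 119.9 TPM on Day 3 against 181 and 171 TPM in Control (log2 fold change -0.49, SE 0.11, adjusted p = 0.0208). PCNA and the RFC clamp loader genes were not called. The letters TTTGAA, the core of the cell cycle genes homology region, occurred in 19 of 25 mitotic promoters, against 9.58% of those of all tested genes, and CCAAT in 22 of 25, against 36.6%.

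Of 15 CDK inhibitors and G1 cyclins tested 1 was higher and 2 were lower, beside 9.82% of all tested genes called. CDKN1A, the inhibitor p21, was at 9.84 and 10.7 TPM on Day 3 against 3.45 and 5.69 TPM in Control (log2 fold change 1.05, SE 0.19, adjusted p = 0.0103). Cyclin D1, CCND1, was at 54.9 and 56.96 TPM on Day 3 against 106 and 107 TPM in Control (log2 fold change -0.92, SE 0.16, adjusted p = 0.00928). Its kinase CDK6 was at 20.8 and 21.7 TPM on Day 3 against 31.8 and 35.1 TPM in Control (log2 fold change -0.63, SE 0.15, adjusted p = 0.0309). Among 21 p53 targets TP53INP1, an autophagy-linked protein, was higher, at 30.8 and 28.1 TPM on Day 3 against 13.2 and 16.4 TPM in Control (log2 fold change 0.95, SE 0.13, adjusted p = 0.00346). GADD45A, a growth-arrest gene, was lower, at 20.9 and 22.2 TPM on Day 3 against 39.1 and 38.1 TPM in Control (log2 fold change -0.81, SE 0.15, adjusted p = 0.0131), and MDM2 was not called. TP53INP1 and GADD45A were the only calls among the 21, where 9.82% of all tested genes were called. Of 31 repair genes 2 were lower, where 4.64% of all tested genes were called lower. FANCA, of the Fanconi core complex, was at 7.49 and 6.74 TPM on Day 3 against 13.9 and 17.6 TPM in Control (log2 fold change -1.04, SE 0.16, adjusted p = 0.00507). After the rescalings 5 and 7 of the 31 were lower. Of 18 genes of the BCL2 family and inhibitors limma called 0 as deposited (5 at an unadjusted p under 0.05) and 1 lower under each rescaling, with BCL2L1 at 154 and 141 TPM on Day 3 against 176 and 179 TPM in Control and MCL1 at 151 and 147 TPM on Day 3 against 136 and 138 TPM in Control.

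Replication-dependent histone genes gave 4 higher of 15 tested, with HIST1H2BD at 51.3 and 47.3 TPM on Day 3 against 25.2 and 29.9 TPM in Control (log2 fold change 0.82, SE 0.16, adjusted p = 0.0148). HIST1H2AC was at 80.3 and 79.3 TPM on Day 3 against 43.3 and 46.9 TPM in Control (log2 fold change 0.81, SE 0.11, adjusted p = 0.00307), from clusters whose copies may share reads. Dormancy-associated genes gave 3 higher and 1 lower of 16 tested, the lower one being THBS1, and 2 higher and 3 lower under nuclear rescaling. BHLHE41, a repressor of the clock, was at 285 and 258 TPM on Day 3 against 114 and 131 TPM in Control (log2 fold change 1.15, SE 0.19, adjusted p = 0.00703). PDK4, which blocks pyruvate dehydrogenase, was at 1.84 and 1.80 TPM on Day 3 against 0.399 and 0.474 TPM in Control (log2 fold change 0.97, SE 0.18, adjusted p = 0.0122). DYRK1B, a kinase of quiescence, was at 196 and 200.2 TPM on Day 3 against 142 and 154 TPM in Control (log2 fold change 0.42, SE 0.09, adjusted p = 0.0225). Of 13 stem-cell-associated genes limma called 0 as deposited (2 at an unadjusted p under 0.05) and 1 lower under nuclear rescaling, with CD24 at 629 and 589.8 TPM on Day 3 against 491 and 510.0 TPM in Control and SOX2 at 36.5 and 37.6 TPM on Day 3 against 32.9 and 35.9 TPM in Control. Of 18 ABC transporters 1 was higher, where 5.18% of all tested genes were called higher. That gene, the lipid transporter ABCA3, was at 7.25 and 6.99 TPM on Day 3 against 2.31 and 2.98 TPM in Control (log2 fold change 1.16, SE 0.17, adjusted p = 0.00467).

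**Figure D3:**
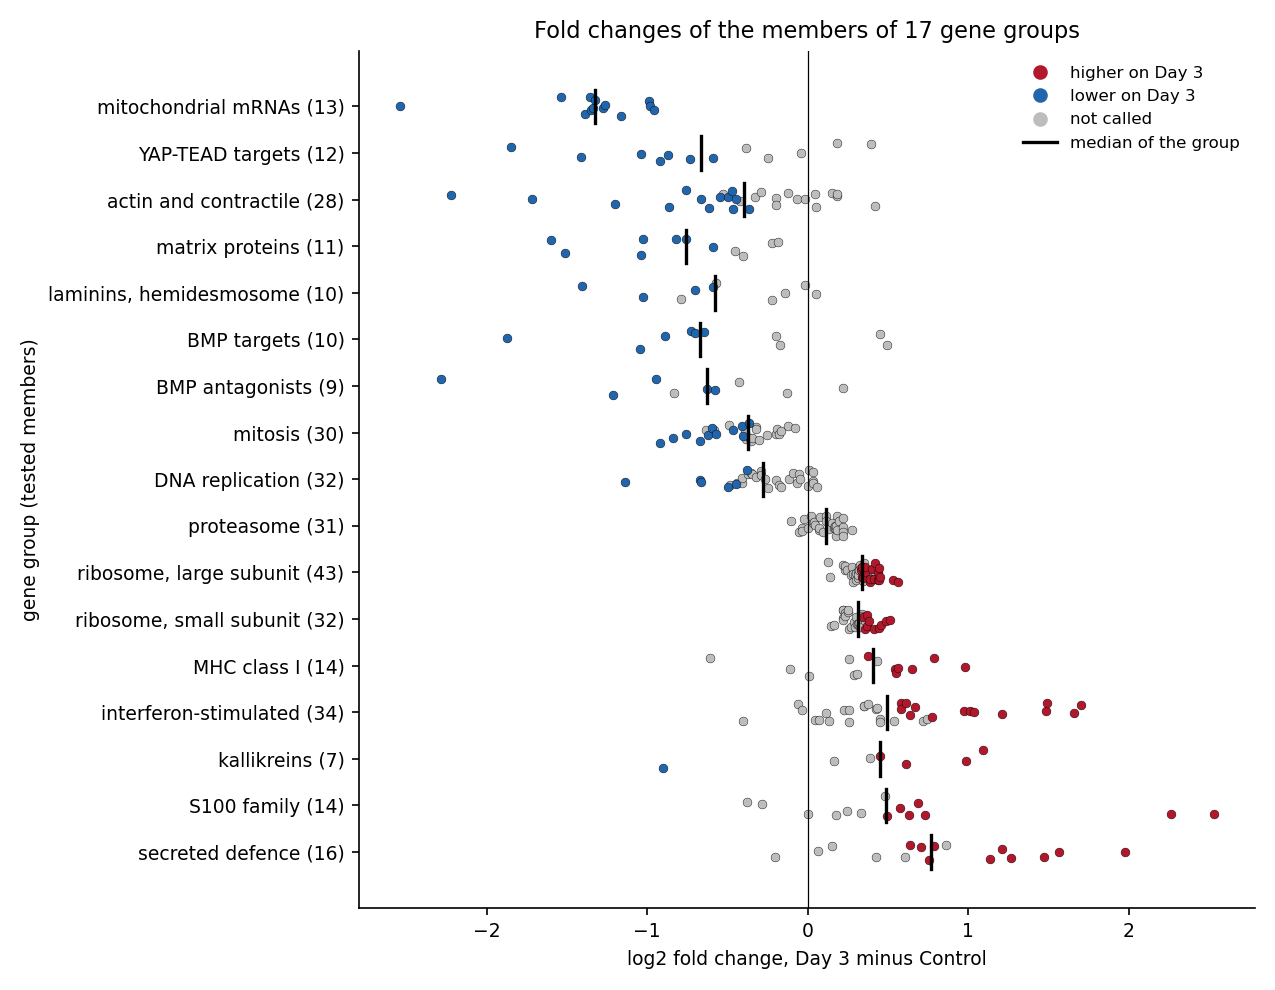
Log2 fold change (Day 3 minus Control) of each tested member of 17 gene groups, with called members in red (higher) or blue (lower), others in grey, and the group median as a black bar. Medians run from -1.32 for mitochondrial mRNAs to 0.77 for secreted defence and acute-phase genes (drawn as secreted defence), and the 31 proteasome subunits hold no call.

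The mitochondrial genome gave a large shift in mass. All 13 of its mRNAs were lower (median -1.32), as were both of its ribosomal RNAs. MT-ND2, of complex I, was at 3036 and 3658 TPM on Day 3 against 9631 and 9726 TPM in Control (log2 fold change -1.54, SE 0.19, adjusted p = 0.00216). MT-ND1 was at 3089.6 and 4073 TPM on Day 3 against 9057 and 9145 TPM in Control (log2 fold change -1.36, SE 0.21, adjusted p = 0.00568). MT-ATP8, whose reading frame overlaps MT-ATP6 so that reads may be divided, was at 16405 and 20501 TPM on Day 3 against 50695 and 45266 TPM in Control (log2 fold change -1.39, SE 0.20, adjusted p = 0.00425). Leaving out 1 of the 4 libraries left between 3 and 9 of the 13 called. Of the nuclear genes for their expression 0 of 33 were called by limma as deposited (3 at an unadjusted p under 0.05), 1 higher after median-of-ratios scaling and 1 lower after nuclear rescaling. SSBP1, of mitochondrial DNA maintenance, was at 271 and 282 TPM on Day 3 against 264 and 255 TPM in Control and SLIRP, which stabilizes mitochondrial mRNAs, at 571 and 569 TPM on Day 3 against 578 and 558 TPM in Control. Nuclear genes of the respiratory chain gave 3 higher of 34 and 0 lower, COX5B, ATP5O and COX6A1, with log2 fold changes of 0.42, 0.35 and 0.35, and 0 higher and 1 lower after nuclear rescaling.

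Ribosomal protein genes were higher by a narrow margin that ran through the whole set. Of 43 genes of the large subunit 18 were higher and 0 lower (median 0.34), and of 32 of the small subunit 10 and 0 (median 0.31). Both Day 3 libraries exceeded both Control libraries for all 43 and all 32, against 38.9% of all tested genes. RPL39 was at 2723 and 2556 TPM on Day 3 against 1844 and 1738 TPM in Control (log2 fold change 0.56, SE 0.09, adjusted p = 0.00582). RPL13A was at 1343 and 1301 TPM on Day 3 against 903 and 924 TPM in Control (log2 fold change 0.53, SE 0.13, adjusted p = 0.033). RPS3A was at 3228 and 3057 TPM on Day 3 against 2244 and 2170.4 TPM in Control (log2 fold change 0.51, SE 0.10, adjusted p = 0.0182), and many have processed pseudogenes that may share reads. As a share of nuclear protein-coding TPM, which leaves the mitochondrial genes out, the 75 genes held 21.2% and 21.1% in Day 3 libraries against 18.8% and 18.6% in Control libraries. Nuclear rescaling gave 13 and 6 higher, and leave-out fits gave 0 or 1 of the large and 0 of the small subunit genes. Of the ribosome biogenesis list 0 of 18 genes were called by limma as deposited (3 at an unadjusted p under 0.05), and 4 and 5 were lower after median-of-ratios and nuclear rescaling. FBL, which methylates ribosomal RNA, was at 2548 and 2606 TPM on Day 3 against 2562 and 2472 TPM in Control and NPM1, a nucleolar chaperone, at 1909 and 1938 TPM on Day 3 against 1997 and 1829 TPM in Control.

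Among nuclear long RNAs and paraspeckle proteins 3 of 14 tested were lower and 1 higher. MALAT1, a speckle RNA, was at 69.1 and 58.05 TPM on Day 3 against 165 and 159.5 TPM in Control (log2 fold change -1.34, SE 0.25, adjusted p = 0.0126). SNHG1, a host of small nucleolar RNAs, was at 101 and 96.7 TPM on Day 3 against 189 and 205 TPM in Control (log2 fold change -0.98, SE 0.11, adjusted p = 0.00163). SNHG5, another host, was higher, at 312 and 293 TPM on Day 3 against 218 and 211 TPM in Control (log2 fold change 0.49, SE 0.12, adjusted p = 0.0297). The paraspeckle proteins SFPQ, NONO and PSPC1 were not called. Of 31 CLK kinases and SR proteins 2 were lower, and 8 and 12 after the rescalings. SRRM2, of nuclear speckles, was at 90.7 and 86.3 TPM on Day 3 against 151 and 164 TPM in Control (log2 fold change -0.82, SE 0.11, adjusted p = 0.00346). SRSF2, a splicing factor, was at 320.2 and 318 TPM on Day 3 against 399 and 413 TPM in Control (log2 fold change -0.35, SE 0.09, adjusted p = 0.0435). By annotated class, 23 of 187 transcribed unprocessed pseudogenes (12.3%) and 8 of 69 sense-intronic RNAs (11.6%) were lower, with 1 and 0 higher, while 17 of 347 processed pseudogenes were higher and 3 lower. Protein-coding genes gave 5.53% higher and 4.41% lower.

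Calls also varied with transcript length. Nuclear protein-coding genes called higher had a median longest transcript of 2.62 kb and 6 exons, those called lower 4.23 kb and 11 exons, and all tested ones 3.66 kb and 8 exons. Across quartiles of length, shortest to longest, 9.83%, 6.21%, 3.46% and 2.66% of genes were higher, and 2.87%, 4.33%, 4.42% and 5.62% lower. Without the 75 ribosomal protein genes the shares of higher genes were 9.37%, 6.05%, 3.47% and 2.6%. The same order held under both rescalings. By group the median was 0.805 kb for S100 genes, 2.01 kb and 1.57 kb for proteins of the large and small ribosomal subunits, 7.39 kb for matrix genes and 6.83 kb for laminin genes. Interferon-stimulated and mitotic genes, at 3.49 kb and 3.59 kb, lay near the 3.66 kb of all tested ones. RNA integrity is not given in the sources used here, and the part of transcript length in these results was not tested. Median promoter GC content was 62.7% for genes called higher, 67.7% for those called lower and 65.3% for all tested.

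**Figure D4:**
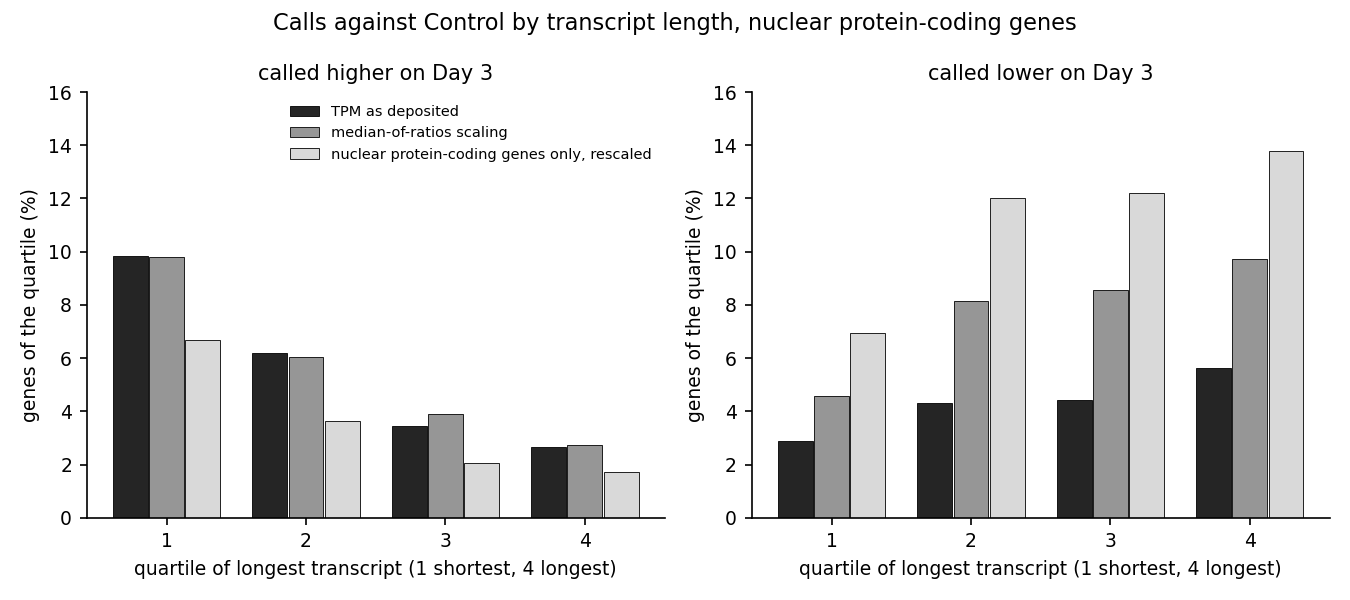
Share of nuclear protein-coding genes called higher (left) and lower (right) on Day 3 in quartiles of longest transcript, with 3236 genes per quartile and a bar for each scaling. Under the deposited TPM the share of higher genes is 9.83% in the shortest quartile and 2.66% in the longest, and the share of lower genes 2.87% and 5.62%.

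Levels at 24 hours in the gel were set beside those at 3 days. Against Day 1, 356 genes (2.35%) were called on Day 3, 100 higher and 256 lower, in a comparison that shares the Day 3 libraries with the one against Control. Higher on Day 3 than on Day 1 were IGFBP5 (22.6 and 22.8 TPM on Day 1, log2 difference 0.70, adjusted p = 0.0305), SELENOP (28.99 and 53.6 TPM on Day 1, 1.53, adjusted p = 0.0182), CLU (941 and 1242 TPM, 0.94, adjusted p = 0.0142) and EHF (43.7 and 42.9 TPM, 0.78, adjusted p = 0.0162). Control libraries had 40.3 and 55.2 TPM of SELENOP, 862 and 1092 TPM of CLU and 36.9 and 46.1 TPM of EHF, close to their Day 1 levels. Of the integrated stress response list 5 of 14 sensors and factors and 9 of 17 targets were lower on Day 3 than on Day 1, and 0 were higher, where 2.35% of all tested genes were called in either direction. ATF3 was at 219 and 143 TPM on Day 1 (-1.59, adjusted p = 0.0074), DDIT3 at 171 and 119 TPM (-1.75, adjusted p = 0.00355), DDIT4 at 111 and 80.7 TPM (-1.25, adjusted p = 0.00697) and SESN2 at 26.4 and 19.6 TPM (-1.25, adjusted p = 0.00617). The NUPR1, ATF4 and PSAT1 levels were not called different between these times. Of 10 BMP targets 8 were lower on Day 3 than on Day 1, with ID1 at 488 and 624 TPM on Day 1 (-0.85, adjusted p = 0.0126), ID3 at 165 and 213 TPM (-1.52, adjusted p = 0.00355) and ATOH8 at 7.34 and 6.77 TPM (-1.37, adjusted p = 0.00355). All 13 mitochondrial mRNAs were higher on Day 3 than on Day 1, MT-ND6 at 12.6 and 14.4 TPM on Day 1 (1.53, adjusted p = 0.00617) and MT-ND2 at 1185 and 1971 TPM (1.12, adjusted p = 0.0204). For S100A8, VIM, LCN2, NEAT1 and TPM2 the Day 3 and Day 1 levels were not called different, which does not show that they were equal. Fitted on Day 3 and Day 1 alone this comparison called 5 genes, so it rests on the spread estimated from all groups. With all groups in the fit, leaving out a Day 3 library gave 12 and 15 calls, and leaving out Day 1 replicate 1 or 2 gave 37 and 837.

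**Figure D5:**
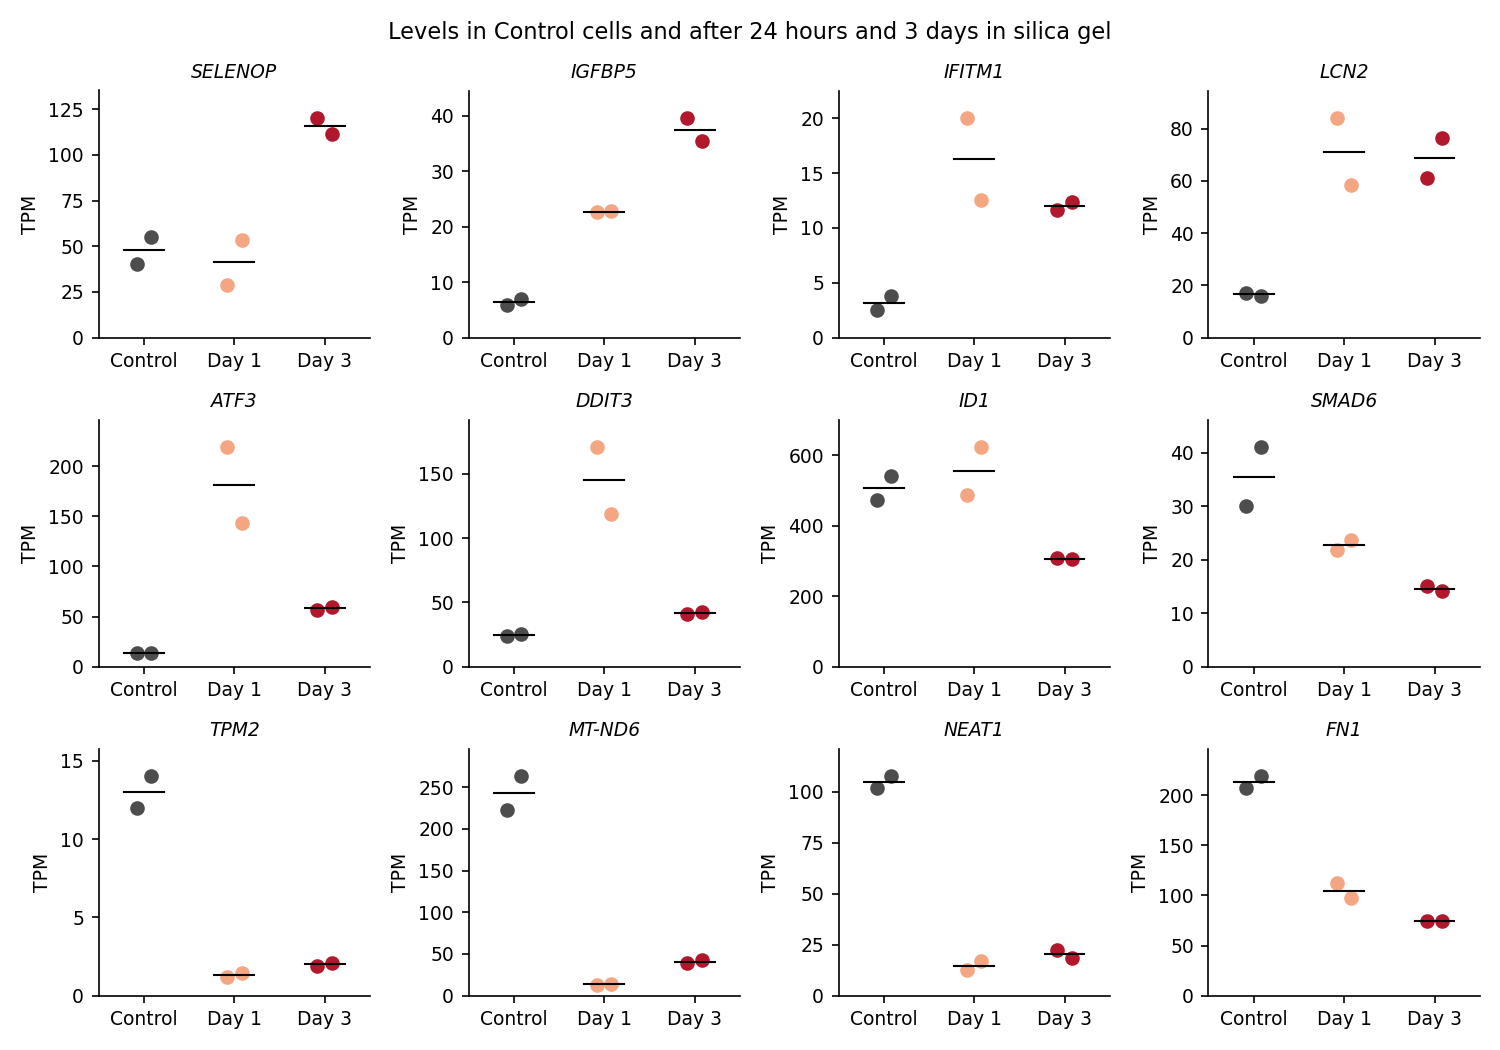
Level (TPM, linear axis from 0) of 12 genes in the Control, Day 1 and Day 3 libraries, each library a point and each group mean a line. SELENOP is high on Day 3 alone of the 3 groups, ATF3 and DDIT3 are highest on Day 1, and NEAT1 and TPM2 are low at both gel times.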

How the data were processed

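RNA of 10 OVCAR-3 cultures, 5 groups of 2 biological replicates, was sequenced after column extraction and standard Illumina library preparation, per the labels. The authors deposited TPM per gene and library. Trimmomatic, STAR, Cufflinks and the build GRCh38 are named in the submitters' processing notes, without versions, annotation release or strand use. The deposited table held 58313 gene entries and 349 blank lines, and TPM were summed over 91 repeated identifiers to 58222 genes. GENCODE release 29 (GRCh38) gave class and position for 57959. TPM carry no read counts, so depth per library is unknown and no counting interval can be given.

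A pseudocount of 1 TPM was added and log2 values went into limma 3.58.1 (R 4.3.3), after a filter that kept genes reaching 1 TPM in 2 or more libraries. All 10 libraries entered 1 model with a term for each group, so that groups of 2 share an estimate of spread. The variance prior followed mean level, and 5 degrees of freedom remained. Tests were two-sided, with Benjamini-Hochberg adjustment over 15167 genes, and the code was tested on simulated data. Groups came from the labels, and the comparisons were Day 3 against Control and Day 3 against Day 1.

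The members, the 38 gene lists (1245 entries, 66 roles) and the tests were chosen with earlier results of these data known. Genes were named by rule: the 15 largest rises and falls among calls with a mean of at least 5 TPM in either group that held in 4 leave-out fits, without clone-like names, pseudogenes and small RNAs; the 10 largest gains and losses in TPM among nuclear protein-coding genes; and per role up to 4 called members, or the 2 most abundant where none was called. Genes said to be not called were picked after their values were seen. A few genes chosen by it are not reported here. The alternatives tried were no filter, a filter of 5 TPM, a pseudocount of 0.1, scaling by median of ratios, rescaling nuclear protein-coding genes to an equal sum, removal of small-RNA genes, a fit of the 2 groups alone, a 2-fold minimum, a replicate block, and each library left out.

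Promoters, 250 bases before to 50 after a start, came from a RefSeq table of GRCh38.p14, in which 11072 of the 15167 tested genes had an entry, and motifs were searched on both strands with overlaps counted. Tables were handled with pandas 2.3.3 and NumPy 2.4.6 in Python 3.11.15, and plots drawn with Matplotlib 3.10.9.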

Additional observations from a re-analysis of the deposited data

Results flagged for a closer look

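Of the 192 named genes called against Control, 35 also differed between Day 3 and Day 1. The test was limma's test of that difference, at an adjusted p under 0.05. Of all 1489 genes called against Control 127 also differed in it, and of all tested genes 2.35% did. Both comparisons use the Day 3 libraries, so the 127 of 1489 is the closer background for the named genes. Values are log2 differences, Day 3 minus Day 1.

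Genes higher on Day 3 than on Day 1 included SELENOP (1.53), CLU (0.94), EHF (0.78), IGFBP5 (0.70), PABPC1L (0.86) and FST (0.72). The mitochondrial mRNAs MT-ND6 (1.53), MT-ATP8 (1.26), MT-ND1 (1.15) and MT-ND2 (1.12) were higher as well, beside a mitochondrial mRNA share of 5.97% and 7.61% of TPM in Day 3 libraries against 2.29% and 3.92% in Day 1 libraries.

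Stress genes called lower on Day 3 were DDIT3 (-1.75), ATF3 (-1.59), DDIT4 (-1.25), SESN2 (-1.25), GADD45A (-0.92) and CDKN1A (-0.96). Of the integrated stress response list 5 of 14 sensors and factors and 9 of 17 targets were lower and 0 higher. Also called lower were BNIP3 (-0.92), P4HA1 (-0.71) and the leucine carrier SLC7A5 (-0.83). Of 10 BMP targets 8 were lower and 0 higher, and of 9 antagonists and modulators 2 were lower and 1, FST, higher. The lower ones included ID3 (-1.52), ATOH8 (-1.37), SMAD9 (-1.31), SMAD7 (-1.14) and ID1 (-0.85). Of 17 cytokines 8 and of 18 immediate-early genes 6 were lower and 0 higher, among them IL6 (-1.37), IER3 (-1.29) and LIF (-0.72). The other named genes that were lower on Day 3 than on Day 1 were SERPINE2 (-1.56), CLDN1 (-1.31), ANKRD1 (-1.11), PLAUR (-0.91), KRT17 (-0.90), TUBA4A (-0.71), AMOTL2 (-0.58) and S100A6 (-0.53). Against Control, SERPINE2 and S100A6 were higher on Day 3 (log2 fold changes 0.92 and 0.69), and the rest of this group were lower. With 1 of the Day 3 or Day 1 libraries left out the number of genes called in the whole comparison lay between 12 and 837.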

How the results depend on the processing

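For Day 3 against Control, 1489 genes as reported, the count became 832 with no level filter, 2585 in a fit of the 2 groups alone and 280 with a 2-fold minimum. It was 1984 with median-of-ratios scaling, 1910 with nuclear protein-coding genes rescaled, 2190 without small-RNA genes, 1429 with a pseudocount of 0.1 and 1455 with a filter of 5 TPM. The share of higher genes among the calls, 52.8% as deposited, was 40.2% with median-of-ratios scaling (798 higher, 1186 lower) and 23.9% with nuclear rescaling (457 higher, 1453 lower). Nuclear rescaling tested 12944 genes, not all 15167. Leaving out 1 library gave 216 to 2254 calls: 252 and 302 without Control replicate 1 or 2, 216 and 269 without Day 3 replicate 1 or 2, 1747 and 1735 without a Day 1 library, 920 and 931 without an Extracted library, and 2254 and 2251 without a Treated library. For Day 3 against Day 1, 356 genes as reported, the count became 89 with no filter, 554 with median-of-ratios scaling, 591 with nuclear rescaling, 572 without small-RNA genes, 5 in a fit of the 2 groups alone and 114 with a 2-fold minimum, and 12 to 837 with 1 library left out (837 without Day 1 replicate 2). The cause was not tested. Replicates share only a number: the correlation of replicate-1 deviations between Day 3 and Control was 0.001, and a replicate block gave 1409 calls against Control (740 higher, 669 lower) and 340 against Day 1. Of 192 named calls 85 were lost with no filter, 120 with the 2-fold minimum, 108 to 123 without a Day 3 or Control library, and none reversed direction under any alternative. With 1 library left in a group, that library is assumed to vary like the other groups. Depth is unknown, and genes near 1 TPM, such as MMP7, SMAD9 and DKK1, are measured with little precision.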

Other observations

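The 6 tested genes with fold changes beyond the range of the plot of all genes were small-RNA and pseudogene entries. RNU6ATAC, a small nuclear RNA of the minor spliceosome, was at 10002 and 7597 TPM on Day 3 against 0 and 0 TPM in Control, so it is listed at 0 in both Control libraries and no fold is given. Small-RNA genes, with ribosomal RNA genes counted among them, held 14.7% of TPM in 1 Treated library, against 0.196% to 3.21% in the other 9 libraries. The part of library preparation in these values was not tested.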
